A study of Mus musculus with 2931 samples.

Results

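The adrenomedullin system was followed in single endothelial cells (EC) of mouse distal lung through 5 genes: the peptide gene Adm, the receptor gene Calcrl, and the genes Ramp1, Ramp2 and Ramp3. The members were the rows of the count table with these symbols, 5 of 18072 gene symbols. Calcrl and Ramp2 were read together in most EC, Ramp3 was read in a minority of capillary, venous and proliferating cells that was small before birth, Adm was read in few cells, and Ramp1 was read in almost none.

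Adrenomedullin is a secreted peptide that widens vessels and tightens the endothelial barrier. Its receptor is a pair of proteins: CALCRL, a seven-helix receptor, reaches the cell surface and gains its ligand preference only with a small single-pass partner, a receptor activity-modifying protein (RAMP). With RAMP2 or RAMP3 the pair is an adrenomedullin receptor, and with RAMP1 it is the receptor for calcitonin gene-related peptide (CGRP). The receptor signals mainly through Gs and cyclic AMP, and Adm is a textbook gene induced by low oxygen.

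The 2931 cells came from 10 mice, 1 female and 1 male in each of 5 groups. In normal air these were the late embryonic day E18.5 and postnatal days 1, 7 and 21 (P1, P7, P21), and the fifth group was P7 after hyperoxia. Cells were sorted from distal lung, and each was sequenced on plates as full-length cDNA cut with the Tn5 transposase. The labels give no strain, genotype or oxygen dose, and do not say whether a mouse name stands for 1 animal, so p-values measure the spread between mouse names. Each cell carries the authors' subtype label, 10 in all. Levels are CPM, the reads of a gene per 1000000 reads, taken on the reads summed over the cells of 1 mouse and label, given where a mouse had at least 4 cells. Because reads were summed over sorted cells, fewer expressing cells and less RNA per cell cannot be told apart from a sum alone. With 2 mice per group, the values of a pair of groups often do not overlap where no difference exists. How often this held over all genes was not counted, so overlap is given as description only.

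A mouse gave 212 to 359 cells and 56564316 to 331392982 reads, with a median of 621406 reads per cell over all mice. Summed CPM of 4 endothelial markers ran from 1599 to 6233 over the 48 sums of a mouse and class with at least 8 cells. Summed CPM of 5 immune markers stayed at or under 51.9, of 2 mesothelial markers at or under 1.47, of 6 mesenchymal and mural markers at or under 306, and of 4 epithelial markers at or under 238. The label Late Car4- capillaries held cells with few detected genes before P21, with a median of 1149 genes in the 12 cells of the E18.5 female and 1108 in the 44 cells of the P7 female, against 3153 in the Early Car4- cells of that P7 mouse. The CD31-sorted cells, which made up most cells, went by run as follows: those of the E18.5, P1 and P21 females shared a run, those of the E18.5, P7, P21 and hyperoxia males shared another, and those of the hyperoxia female, of the P7 female and of the P1 male were in a run with no other CD31-sorted cells. Cells of the gates named mesench and CD45 were often in another run than the CD31-sorted cells of their mouse, among them 65 mesench cells of the P21 female and 120 of the P21 male.

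In GENCODE M21 on GRCm38, Adm lies on chromosome 7 from 110627661 to 110629820, Calcrl on chromosome 2 from 84330626 to 84425411, and Ramp1 on chromosome 1 from 91179822 to 91225196. Ramp2 lies on chromosome 11 from 101246028 to 101259546, and Ramp3 on the same chromosome from 6658521 to 6677475. The promoters of Adm and Ramp3 are shown because both were read in a minority of cells, at shares that differed between labels. Each is 240 bases ending 11 bases before the RefSeq transcript start, on the plus strand of GRCm38.p6, at chr7:110627407-110627646 for Adm and chr11:6658283-6658522 for Ramp3, with capitals at motif matches.
Adm: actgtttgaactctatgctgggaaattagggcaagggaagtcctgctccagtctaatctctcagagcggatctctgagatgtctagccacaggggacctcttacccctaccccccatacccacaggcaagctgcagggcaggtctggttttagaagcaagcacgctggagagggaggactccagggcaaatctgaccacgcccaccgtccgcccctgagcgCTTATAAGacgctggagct
Ramp3: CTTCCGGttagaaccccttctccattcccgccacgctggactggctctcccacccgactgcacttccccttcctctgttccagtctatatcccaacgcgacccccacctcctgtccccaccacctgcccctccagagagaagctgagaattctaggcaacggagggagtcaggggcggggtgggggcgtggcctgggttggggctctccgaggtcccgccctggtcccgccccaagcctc
The letters TATAAG, the core bound by the TATA-binding protein, were searched on both strands, and the capitals in Adm mark its 2 overlapping matches, 1 on each strand. Of 32851 RefSeq promoter windows of the same length, 6.50% held TATAAG. The capitals in Ramp3 mark the reverse strand of CCGGAAG, an ETS factor core, which 6.20% of the windows held. The letters ACGTG, 1 form of the hypoxia core, were held on either strand by 15.9% of the windows. They matched in none of the windows of Adm, Calcrl, Ramp1 and Ramp3. The form GCGTG was not searched, and both printed windows hold it as GCGTG or as its reverse strand CACGC. The table of promoters matched 4 of the 5 members.

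Calcrl, the ligand-binding partner, was read in every blood-vessel subtype and was lowest in lymphatic EC. By the median over mice the order was venous EC at 2304 CPM (1099 to 3364, 10 mice), proliferative venous EC at 1979 (1876 to 2082, 2 mice), arterial EC I at 1963 (1059 to 4319, 8 mice) and Early Car4- capillaries at 1813 (1515 to 2498, 7 mice). Late Car4- capillaries followed at 1637 CPM (157 to 3479, 6 mice), then Car4+ capillaries at 1217 (360 to 4285, 8 mice) and proliferative EC at 1065 (499 to 1983, 9 mice). Arterial EC II stood at 1046 CPM (527 to 1389, 7 mice), nonproliferative embryonic EC at 756 (629 to 884, 2 mice) and lymphatic EC at 234 (124 to 312, 6 mice). The ranges of all neighbours in this order overlapped except those of embryonic and lymphatic EC, where the highest lymphatic mouse lay under the lowest embryonic one.

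**Figure D1:**
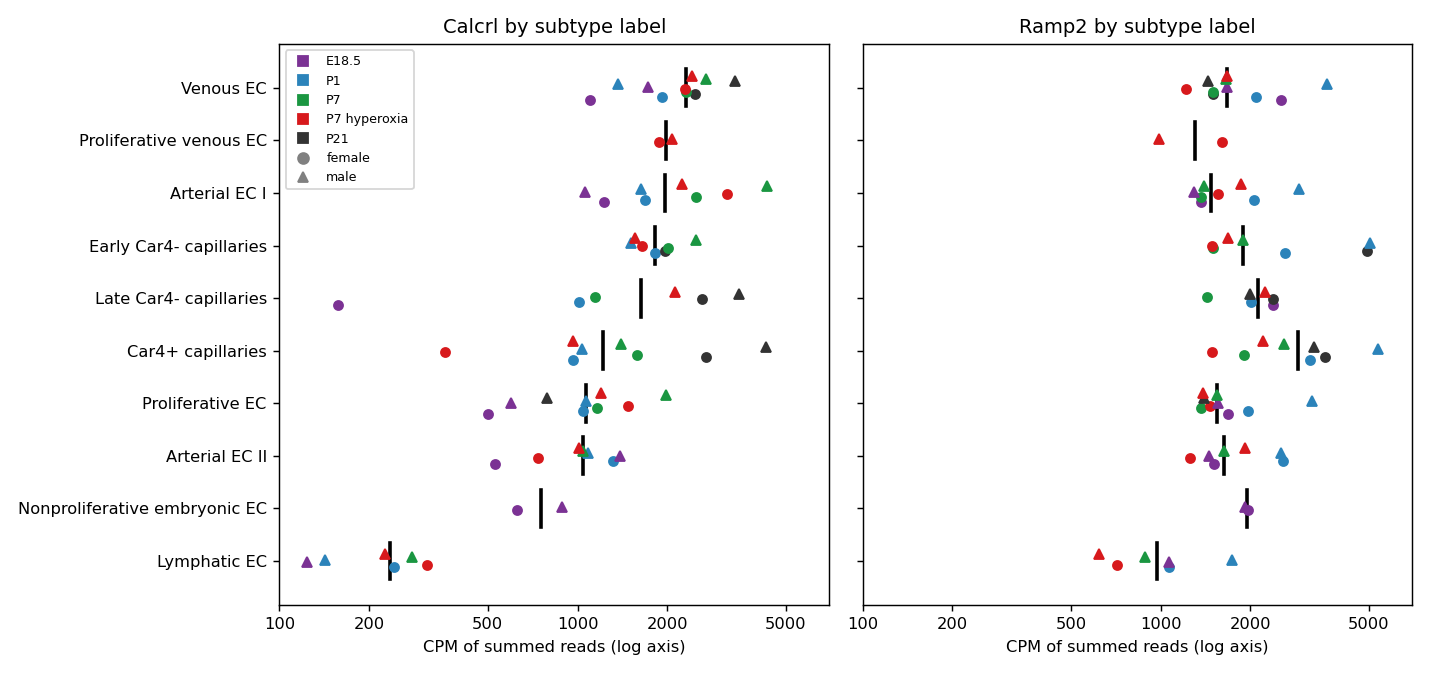
Calcrl (left) and Ramp2 (right) in CPM of summed reads on a log axis, 1 point per mouse with at least 4 cells of the label, coloured by age and treatment, circles for females and triangles for males; black bars are medians. Lymphatic EC have the lowest median for both genes, and Car4+ capillaries the highest median of Ramp2.

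Ramp2, the partner that makes the main endothelial adrenomedullin receptor, was spread more evenly and had its highest median in Car4+ capillaries, the sparse, large capillary cells that face the alveolar epithelium. There it stood at 2891 CPM (1488 to 5376, 8 mice), ahead of Late Car4- capillaries at 2124 (1428 to 2391), embryonic EC at 1943 (1921 to 1965) and Early Car4- capillaries at 1892 (1487 to 5057). Venous EC at 1665 CPM, arterial EC II at 1627, proliferative EC at 1552, arterial EC I at 1478 and proliferative venous EC at 1300 lay close together with overlapping ranges. Lymphatic EC were again last at 974 CPM (620 to 1735). Per kilobase of exons, the scale on which genes can be compared, the median of Ramp2 was above that of Calcrl in Car4+ capillaries (876 against 249 CPM per kilobase), in lymphatic EC (295 against 48.0) and in embryonic EC (589 against 155). It was also above in arterial EC II (493 against 214), proliferative EC (470 against 218), Late Car4- (644 against 335) and Early Car4- capillaries (573 against 371). The medians of both genes lay close in venous EC, at 505 for Ramp2 and 472 for Calcrl, and in arterial EC I, at 448 and 402. In proliferative venous EC they were 394 for Ramp2 and 405 for Calcrl.

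Subtypes were compared within mice, by edgeR's quasi-likelihood test on the sums of a subtype and of Car4- capillaries (Early and Late labels together) with the mouse as a term. A mouse entered with at least 8 cells of each. The labels were made from expression of the same cells, so these tests are not independent of the labelling, and P7 and hyperoxia mice are pooled with the others. Genes were called at a Benjamini-Hochberg adjusted p under 0.05 over all genes tested.

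Car4+ capillaries had more Ramp2 than Car4- capillaries, with 2948 ± 1214 against 2328 ± 1186 CPM (SD, n = 8 mice) and a higher value in 7 of 8 mice. The log2 change was 0.59 (SE 0.12, adjusted p = 0.00755 by edgeR). Calcrl was not called there, with a log2 change of -0.38 (95% interval -0.87 to 0.11, adjusted p = 0.353) and a lower value in 6 of 8 mice. Ramp3 was not called either, at -1.77 (SE 0.83, adjusted p = 0.229). In this comparison 8.53% of all genes tested were called, and the median log2 change over all genes was -0.45, so that Ramp2 stood further from the typical gene than from 0.

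Proliferative EC had less Calcrl than the Car4- capillaries of the same mouse, with 1320 ± 359 against 1812 ± 357 CPM (SD, n = 6) and a lower value in 6 of 6 mice. The log2 change was -0.47 (SE 0.10, adjusted p = 0.0287 by edgeR), beside a median over all genes of -0.35 and 3.43% of genes called. The call was lost without any 1 of 5 of the 6 mice (adjusted p between 0.0699 and 0.124), with normal-air mice alone (adjusted p = 0.107) with a minimum of 5 cells (adjusted p = 0.127) and with all classes in 1 fit (adjusted p = 0.650), while the log2 change stayed between -0.67 and -0.36 over all alternatives. Ramp2 was lower in all 6 mice too but not called, at -0.29 (SE 0.10, adjusted p = 0.182).

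Lymphatic EC, which line the vessels that drain tissue fluid, had less of both receptor genes in each of the 3 mice with enough cells. Calcrl was at 232 ± 85.4 against 1637 ± 123 CPM (SD, n = 3), a log2 change of -3.09 (SE 0.33, adjusted p = 0.00322 by edgeR). Ramp2 was at 1170 ± 520 against 3051 ± 1847 CPM (SD, n = 3), a log2 change of -1.51 (SE 0.26, adjusted p = 0.0200). Of all genes tested, 5.62% were called here. Without the P1 female the adjusted p was 0.0651 for Calcrl and 0.260 for Ramp2, and without the P1 male it was 0.0729 for Ramp2. Each of these omissions leaves 2 mice.

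Venous EC and arterial EC I showed no called member. Calcrl was higher than in Car4- capillaries in 5 of 7 mice for venous EC (log2 change 0.28, 95% interval 0.02 to 0.54, adjusted p = 0.224) and in 4 of 5 mice for arterial EC I (0.41, 95% interval 0.04 to 0.79, adjusted p = 0.279). Ramp2 was at -0.20 (95% interval -0.44 to 0.04) in venous EC and at -0.18 (-0.55 to 0.20) in arterial EC I. The shares of all genes called were 6.03% for venous EC and 0.238% for arterial EC I. Over the 5 subtype comparisons, 4 of 25 tests of a member were called by edgeR, beside 4.82% of the tests of all genes.

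**Figure D2:**
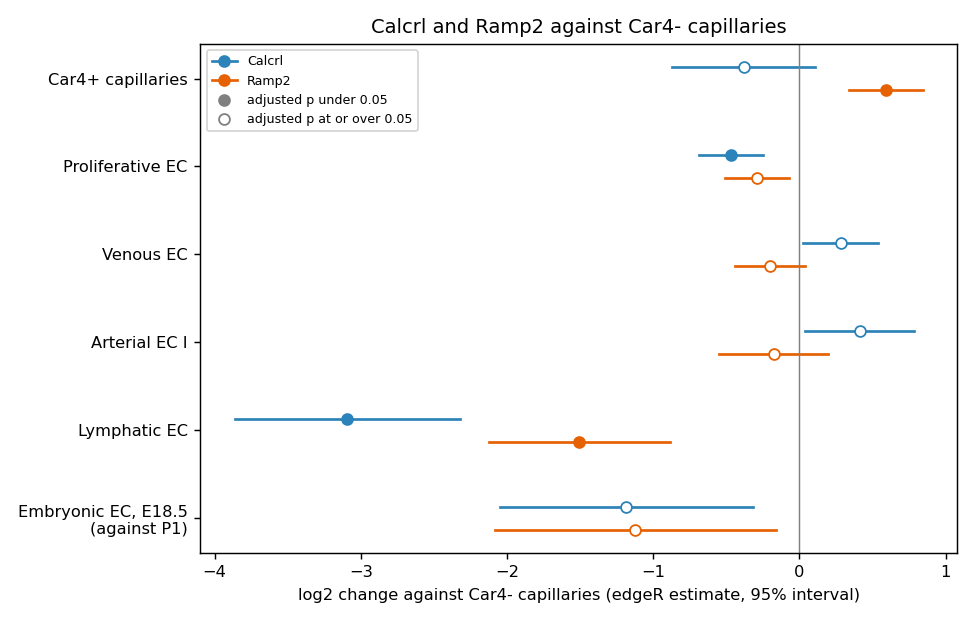
Log2 change of Calcrl (blue) and Ramp2 (orange) in each subtype against Car4- capillaries of the same mice, and in embryonic EC at E18.5 against Car4- capillaries at P1, with 95% intervals from the edgeR fit. Filled points passed an adjusted p of 0.05; both genes lie furthest to the left in lymphatic EC, and Ramp2 lies above 0 in Car4+ capillaries alone.

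The receptor genes were read together in most cells. To compare cells at 1 depth, each was thinned to 50000 reads, which left out 11 shallower cells. Calcrl and Ramp2 were then both read in a median over mice of 100% of venous EC, 98.7% of Early Car4- capillaries, 97.2% of Car4+ capillaries, 94.5% of proliferative EC, 84.9% of embryonic EC, 82.7% of lymphatic EC and 80.0% of Late Car4- capillaries (33.3 to 95.5%). In Late Car4- capillaries a median of 13.6% of cells had Calcrl and no read of a Ramp gene (2.99 to 23.8%). Calcrl with Ramp3 was read in 22.5% of Early Car4- capillaries (0 to 40.5%), 18.7% of venous EC (0 to 44.0%), 17.6% of proliferative EC (0 to 44.4%) and 8.55% of Car4+ capillaries (0 to 35.3%). The share was the same when Ramp2 was required as well in 82 of 83 pairs of a mouse and label. In the Early Car4- capillaries of the P1 female the share was 18.9% without and 18.2% with Ramp2. Many of the 83 pairs had no cell with both Calcrl and Ramp3, so both shares were 0 and could not differ. Pairs under the minimum number of cells for levels were counted too. By the median over mice, Ramp2 was read in most cells of every label, so no link between Ramp3 and Ramp2 can be read from the match. Without unique molecular identifiers, shares and read counts cover counting error only.

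Ramp3, the partner that also steers the receptor's recycling, marked a minority of cells, with a read in 407 of the 2931 cells at full depth. In those cells, which were picked for having a read, the median was 209 CPM in 220 Early Car4- capillaries, 158 in 52 venous EC and 107 in 40 Car4+ capillaries. It was nearly absent from 3 labels, with a read in 2 of 96 arterial EC I, 1 of 42 arterial EC II and 2 of 82 lymphatic EC. Summed levels were at or under 8.05 CPM in every mouse of arterial EC I, at 0 in 6 of 7 mice of arterial EC II, and at or under 8.38 CPM in lymphatic EC. Against Car4- capillaries Ramp3 was lower in 5 of 5 mice for arterial EC I (2.80 ± 3.90 against 65.2 ± 22.8 CPM, SD, n = 5, adjusted p = 0.271 by edgeR) and in 3 of 3 for lymphatic EC (1.40 ± 2.42 against 59.0 ± 28.1 CPM, SD, n = 3, adjusted p = 0.0686). Neither was called by edgeR as fitted here, and DESeq2 called both, with adjusted p of 7.36e-06 and 5.66e-04. For lymphatic EC, 8 of 19 alternatives passed: DESeq2, limma (adjusted p = 0.00333), and edgeR with no filter, 50000 reads per cell, normal-air mice alone, a minimum of 5 cells, all classes in 1 fit, or without the hyperoxia female (adjusted p between 0.00129 and 0.0416). Normal-air mice alone and leaving out the hyperoxia female are the same fit of the P1 mice. Leaving out a mouse that the fit did not hold repeats the main fit, so the 19 alternatives are not all distinct. Without the P1 female or the P1 male the adjusted p was 0.347 and 0.260.

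**Figure D3:**
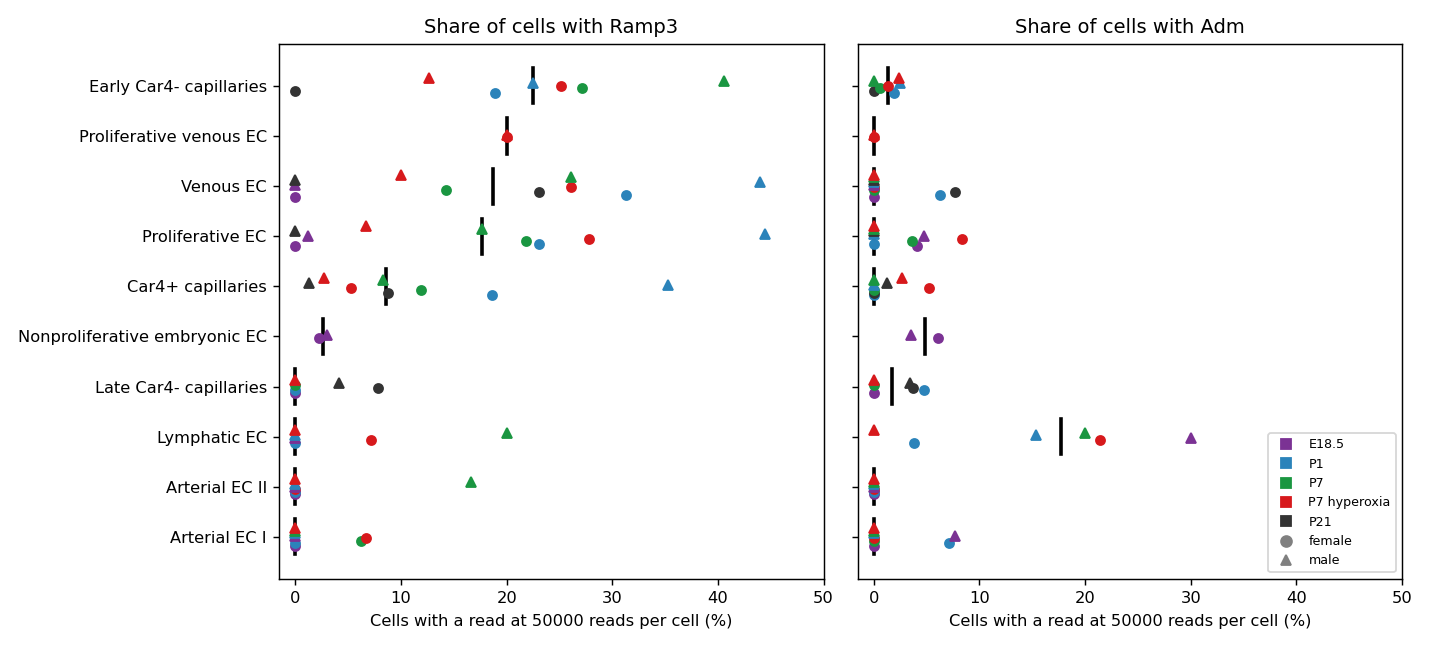
Share of cells with a read of Ramp3 (left) and Adm (right) after thinning to 50000 reads per cell, in percent, 1 point per mouse with at least 4 cells of the label, colours and shapes for group and sex; black bars are medians. Ramp3 has medians of 17.6% to 22.5% in Early Car4-, venous, proliferative and proliferative venous EC, and Adm has its highest median, 17.7%, in lymphatic EC.

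Ramp3 was low before birth. Nonproliferative embryonic EC at E18.5 had 11.9 CPM in the female and 8.90 in the male, against 42.7 and 91.4 in Car4- capillaries at P1. All E18.5 values lay under all P1 values, and Ramp3 was the 1 member called, with a log2 change of -2.84 (SE 0.55, adjusted p = 0.0343 by edgeR), where 0.494% of all genes were called. The adjusted p was 0.162 without the E18.5 female, 0.271 without the E18.5 male, 0.255 without the P1 male, 0.0611 without the P7 female, 0.0701 without the P7 male and 0.0978 by limma. This pair of groups differs in subtype label as well as in age, and the 2 cannot be told apart. Within the run that the E18.5 and P1 females shared, the CD31-sorted cells had 11.9 and 43.7 CPM.

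The same order by age was seen in proliferative and venous EC. Proliferative EC had 0 and 0.340 CPM of Ramp3 at E18.5 and 56.0 and 93.0 at P1, from 23 reads in 206 cells against 1473 reads in 22 cells. Venous EC had 0 reads in both E18.5 mice (11 cells each) and 72.4 and 92.2 CPM at P1. With the E18.5 pair set to 3 reads in total the ratio is 571-fold. That covers counting error of reads alone and is no lower bound over so few cells. The groups did not overlap in either label, but edgeR did not call them, with adjusted p of 0.332 for proliferative EC and 0.126 for venous EC. Of all genes, 0% were called for proliferative EC and 0.0162% for venous EC in this step. DESeq2 called both, with adjusted p of 2.52e-08 and 1.69e-08. In the shared run of the females, CD31-sorted proliferative EC had 0 reads at E18.5 and 56.0 CPM at P1.

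After P7 the Ramp3 values in capillaries were lower in sums over all gates. The Car4- class changed its labels in this step: it was 162 Early and 44 Late cells in the P7 female and 114 and 2 in the P7 male, but 4 Early and 268 Late cells in the P21 female and 3 and 265 in the P21 male, so age and label cannot be told apart. In Car4- capillaries the values were 84.9 (female) and 146 CPM (male) at P7 against 28.8 and 32.7 at P21, without overlap (log2 change -1.78, SE 0.52, adjusted p = 0.242 by edgeR; adjusted p = 0.0217 by DESeq2). Of all genes, 0.266% were called between these ages. In Car4+ capillaries they were 49.4 and 139 CPM at P1, 22.5 and 89.1 at P7, and 10.1 and 2.499 at P21. From P7 to P21 the log2 change in Car4+ capillaries was -3.38 (adjusted p = 0.858 by edgeR, 0.00814% of genes called). The P7 male value there came from few cells: 682 of its 689 reads were in 1 of 6 cells from the gate named mesench, and its 18 CD31-sorted cells had 2.35 CPM. In the same run, CD31-sorted Car4+ capillaries of the P21 male had 5.83 CPM (44 cells), the other way. CD31-sorted Car4- capillaries of these males had 122 CPM at P7 and 49.4 at P21. The P21 venous EC had 116 CPM in the female (13 cells) and 0 in the male (4 cells). Summed CPM of 6 genes of the dissociation response also differed between these ages in Car4- capillaries, at 924 and 2121 at P7 and 4689 and 4517 at P21, and their part in the result was not tested. Within the Late label the order of Ramp3 was the other way, at 0.043 CPM in the P7 female (44 cells with few genes) and 29.3 and 33.2 at P21.

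**Figure D4:**
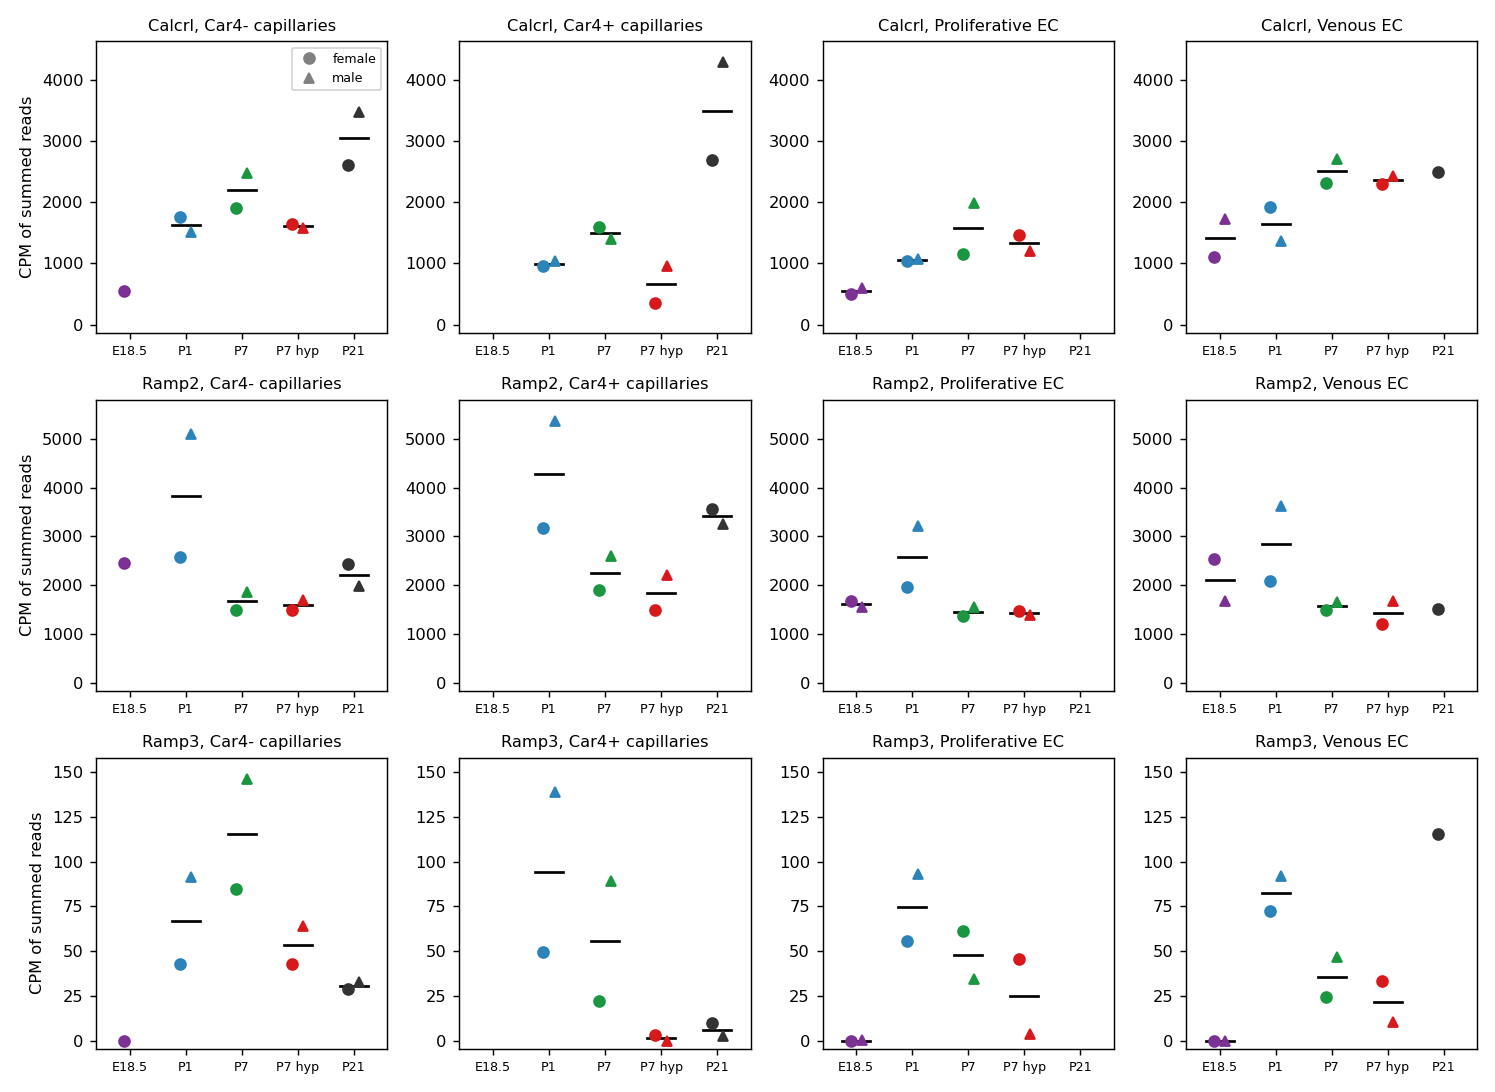
CPM of summed reads of Calcrl, Ramp2 and Ramp3 (rows) in 4 classes (columns) by age and treatment, 1 point per mouse with at least 8 cells, circles for females and triangles for males, black lines for the mean of a pair; P7 hyp is P7 after hyperoxia. Calcrl is highest at P21 in both kinds of capillary, Ramp2 is highest in the P1 male in every class, and Ramp3 is at or near 0 at E18.5.

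Calcrl had its highest capillary values at P21. In Car4+ capillaries the female and male had 963 and 1032 CPM at P1, 1588 and 1401 at P7, and 2696 and 4285 at P21. In Car4- capillaries, mostly of the Early label up to P7 and of the Late label at P21, they had 1754 and 1510 CPM at P1, 1901 and 2483 at P7, and 2608 and 3473 at P21. The ages did not overlap in either class, and no step was called. In CD31-sorted cells of 1 run, the P21 and P7 males had 2701 and 2601 CPM of Calcrl in Car4- capillaries and 2999.9 and 2180 in Car4+ capillaries. Summed CPM of 6 genes of the dissociation response in Car4+ capillaries was 2079 and 2299 at P7 and 7850 and 5132 at P21; their part in the result was not tested. From P7 to P21 the log2 change of Calcrl was 1.18 in Car4+ capillaries (95% interval 0.05 to 2.30, adjusted p = 0.858 by edgeR, 0.00814% of genes called) and 0.61 in Car4- capillaries (-0.21 to 1.43, adjusted p = 0.602). The difference of these changes of Calcrl was 0.56 (95% interval -0.13 to 1.24, adjusted p = 1), where 0.00698% of genes were called. From P1 to P7 the log2 change of Calcrl was 0.71 in Car4+ and 0.32 in Car4- capillaries, and 0% of all genes were called in either or for their difference.

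Calcrl in proliferative EC was also higher at P7 than before birth, while venous EC were less regular. Proliferative EC had 499 and 600 CPM at E18.5, 1044 and 1065 at P1, and 1159 and 1983 at P7, without overlap, but 792 in the P21 male (7 cells). The log2 change of Calcrl from E18.5 to P1 was 1.03 (SE 0.44, adjusted p = 0.656 by edgeR). Venous EC had 1099 and 1730 CPM at E18.5, overlapping the 1925 and 1365 at P1 (log2 change of Calcrl 0.08, adjusted p = 0.977), and 2311 and 2704 at P7 (log2 change of Calcrl 0.56, SE 0.46, adjusted p = 1). From P1 to P7, 0% of all genes were called in either label. In embryonic EC Calcrl was at 629 and 884 CPM, below both P1 mice of Car4- capillaries (log2 change -1.18, SE 0.41, adjusted p = 0.366).

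Ramp2 was higher at P1 than at P7 in all 4 classes, and 1 mouse led it. In Car4- capillaries the female and male had 2574 and 5090 CPM at P1 against 1488 and 1871 at P7 (log2 change of Ramp2 -1.35, SE 0.45, adjusted p = 0.385 by edgeR). In Car4+ capillaries they had 3178 and 5376 CPM at P1 against 1906 and 2604 at P7, in proliferative EC 1962 and 3213 against 1363 and 1552, and in venous EC 2086 and 3615 against 1497 and 1664. The groups did not overlap in any of these, which is common with 2 mice per group, and none was called. The classes also share their mice. The P1 male had the highest Ramp2 of the postnatal mice in 6 labels, and its CD31-sorted cells were the only ones of their run. Without the P1 male, the log2 change of Ramp2 in Car4- capillaries was -0.54 (adjusted p = 0.897). No run held CD31-sorted cells of both a P1 and a P7 mouse, so for these cells age and run cannot be told apart in this step.

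Under hyperoxia at P7, a model of newborn lung injury by high oxygen, no member was called in any class. The comparisons of hyperoxia and of age share the P7 normal-air mice. Of all genes tested, 0.0136% were called in Car4- capillaries and 0% in each of Car4+ capillaries, proliferative EC and venous EC. Of the 16 tests of a member, 6 gave p below 0.05 in edgeR before adjustment, as did 4.27% of the tests of all genes. DESeq2 called 4 of the 16, and 1.25% of the tests of all genes, and limma called 0.

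In Car4+ capillaries Calcrl was lower in both hyperoxia mice than in both normal-air mice. They had 360 CPM in the female (19 cells) and 963 in the male (37 cells), against 1588 and 1401 in normal air. The groups did not overlap, with a log2 change of Calcrl of -1.42 (95% interval -2.55 to -0.29, adjusted p = 0.731 by edgeR). Without the hyperoxia female the log2 change was -0.79. In the same sums 4 epithelial markers summed to 170 and 238 CPM after hyperoxia and to 18.2 and 53.5 in normal air, and 4 endothelial markers to 4219 and 4819 against 5044 and 5805; their part in the result was not tested. Within the run of the males, CD31-sorted Car4+ capillaries had 963 CPM of Calcrl after hyperoxia and 2180 in normal air. In Car4- capillaries Calcrl was at 1648 and 1576 CPM after hyperoxia against 1901 and 2483 (log2 change -0.47, SE 0.38, adjusted p = 1), with the epithelial markers at 96.8 and 157 against 28.8 and 67.6 CPM. In venous EC it was at 2297 and 2428 against 2311 and 2704 (log2 change -0.07, 95% interval -1.06 to 0.92). The difference of the changes of Calcrl between Car4+ and Car4- capillaries was -1.10 (95% interval -2.33 to 0.13, adjusted p = 1), where 0% of genes were called.

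Ramp3 was also low in those cells, at 3.34 and 0.235 CPM after hyperoxia against 22.5 and 89.1 in normal air. The log2 change was -5.38 (SE 1.56, adjusted p = 0.731 by edgeR; adjusted p = 0.00178 by DESeq2). As given above, the normal-air male value rested on 1 cell, and with CD31-sorted cells alone the log2 change of Ramp3 was -3.10 (adjusted p = 1). The difference of this change from that in Car4- capillaries was -4.61 (unadjusted p = 0.0221, adjusted p = 1 by edgeR). In Car4- capillaries Ramp3 was at 42.9 and 63.9 CPM after hyperoxia against 84.9 and 146, again without overlap (log2 change -1.13, SE 0.51, adjusted p = 0.887). Ramp2 differed less, at 1488 and 2204 CPM in Car4+ capillaries after hyperoxia against 1906 and 2604, with overlap (log2 change -0.58, 95% interval -1.59 to 0.44). For proliferative and for venous EC, 0% of genes were called for the difference from Car4- capillaries.

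Adm, the ligand gene, was read in 100 of 2931 cells. Lymphatic EC had the highest share, 14 of 82 cells, and the highest median level over mice, 30.2 CPM (0 to 179, 6 mice). In the 3 mice compared, lymphatic EC had 62.0 ± 66.5 CPM of Adm against 4.16 ± 2.79 in Car4- capillaries (SD, n = 3), higher in 3 of 3, with a log2 change of 3.27 (SE 1.32, adjusted p = 0.238 by edgeR; adjusted p = 0.00412 by DESeq2). No read of Adm was found in 42 arterial EC II pooled over mice, which by counting error alone allows a share of cells with a read of up to 7.14%. The reads sat in few cells: 1 cell held 41.8% of the Adm reads of Late Car4- capillaries and 33.0% of those of lymphatic EC.

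With age, Adm in Car4- capillaries was at 3.54 and 7.21 CPM at P1, 0.277 and 0 at P7, and 26.7 and 32.6 at P21. The P21 values lay above all P1 and P7 values, and the log2 change from P7 to P21 was 7.65 (SE 1.61, adjusted p = 0.0900 by edgeR). The cell that held 41.8% of the Adm reads of the Late label was of the P21 female and held most of her reads. Her place above the P1 male rests on that cell. Adm in this step was the member closest to a call over age, and it passed in DESeq2 (adjusted p = 4.32e-10), with no filter on low counts (0.0279) and at 50000 reads per cell (0.0133). Its adjusted p also passed without the P1 female (0.0493), the hyperoxia female (0.0445) or the hyperoxia male (0.0485). These were 6 of 17 alternatives. Adm was not called by limma, with RLE scaling, with CD31-sorted cells alone or with sex as a block. It was not called without any 1 of the P7 and P21 mice either. In CD31-sorted cells of 1 run, the males had 31.9 CPM of Adm at P21 and 0 reads at P7. The P21 cells of this class were almost all of the Late label, and age and label cannot be told apart; the Late label had 0 reads of Adm in the 44 cells of the P7 female. Summed CPM of 4 epithelial markers was 28.8 and 67.6 at P7 and 156 and 214 at P21 and that of the dissociation genes is given above; their part in the result was not tested. After hyperoxia, Adm was at 1.73 and 10.6 CPM in Car4- capillaries (adjusted p = 0.777 by edgeR, 2.16e-04 by DESeq2). It was at 27.8 and 6.95 CPM in Car4+ capillaries (adjusted p = 0.731 by edgeR, 0.0419 by DESeq2), where normal air gave 0 reads. With the normal-air pair set to 3 reads in total the ratio is 213-fold, which covers counting error of reads alone and is no lower bound over cells. The Car4+ reads came from 1 cell with a read in each hyperoxia mouse (5.26% and 2.70% of cells). Cells with Adm mostly held the receptor gene, as did most cells of their labels. At 50000 reads, Calcrl was read in 12 of 12 such Early Car4- capillaries, 20 of 20 Late Car4- capillaries, 13 of 14 proliferative EC, 10 of 14 embryonic EC and 9 of 10 lymphatic EC. Over all cells of these labels, in the same order, the median share over mice was 99.4%, 96.9%, 97.2%, 85.3% and 86.5%. The counts are thus no trait of cells with Adm.

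Ramp1, the CGRP receptor partner, was read in 20 of 2931 cells, and 6 cells reached 20 CPM. Levels stood out in single cells: the 39.3 CPM of the Car4+ capillaries of the P1 male and the 16.1 CPM of the Early Car4- capillaries of the P1 female rested on these. Venous EC (203 cells) and lymphatic EC (82 cells) had 0 reads, which by counting error alone, over cells pooled from all mice, allows shares of cells with a read of up to 1.48% and 3.66%. No test of Ramp1 was called by edgeR. DESeq2 called some, among them hyperoxia in Car4- capillaries (adjusted p = 0.00384). There Ramp1 was at 3.88 and 2.92 CPM after hyperoxia, against 0.0054 and 0 in normal air. Over all mice, 6 Early Car4- capillaries had a read.

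Over the 8 steps of age, 0 of 32 tests of a member were called by edgeR, and 12 gave p below 0.05 before adjustment, as did 7.97% of the tests of all genes. DESeq2 called 6 of the 32, and 3.20% of the tests of all genes, and limma called 0. The differences in age and hyperoxia effects between classes gave 0 calls in 25 tests by edgeR, with 1 unadjusted p under 0.05, beside 3.27% of the tests of all genes, 1 call by DESeq2, beside 1.21% of them, and 0 by limma.

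The genes most alike to each member were ranked by Pearson's r of log2(CPM + 1) over the 48 sums of a mouse and class, which share mice, libraries and depth, among 7250 genes with a mean of at least 20 CPM. Calcrl was most like Plscr1 (r = 0.855), Epas1 (0.841), which encodes a hypoxia-inducible factor subunit, and Tspan7 (0.835). Ramp2 was most like Rnasek (0.718), Icam2 (0.711), an endothelial adhesion molecule, and Crip1 (0.705). Ramp3 was most like Baiap2, Ripply3 (both 0.668) and Bach2 (0.666), and Adm like Cpne2 (0.606), Gja1 (0.586), a gap junction protein, and Fxyd6 (0.569).

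Other genes of the pathway were called between subtypes. In the 12 comparisons of age and hyperoxia within a class, 0 of the 44 listed genes with a row in the table were called by edgeR. In venous EC against Car4- capillaries, 3 of 5 tested genes of peptide maturation, clearance and binding were called higher, and 1 of 3 other receptors, where 6.03% of all genes were called. Cpe, a carboxypeptidase that trims peptide hormones, was at 1083 ± 682 against 2.38 ± 2.23 CPM (SD, n = 7; log2 change 9.06, adjusted p = 3.30e-05). Ackr3, a scavenging receptor for adrenomedullin, was at 1425 ± 1021 against 239 ± 198 CPM (log2 change 2.59, adjusted p = 2.44e-04). Of the 19 genes of Gs, cyclic AMP and its effectors 3 were called lower and 0 higher in venous EC, among them Rapgef4, a cyclic AMP-activated exchange factor (6.37 ± 8.27 against 33.8 ± 20.4 CPM, adjusted p = 0.0138). The list's median log2 change was -0.36, beside -0.27 over all genes.

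Lymphatic EC differed in the same signalling list, with 1 of 19 genes called higher and 3 lower (list median -0.79, all genes -0.21), where 5.62% of all genes were called. Pde3a, a phosphodiesterase that degrades cyclic AMP, was at 0.320 ± 0.179 against 172 ± 47.3 CPM (SD, n = 3, adjusted p = 3.89e-04). Among genes induced by hypoxia, 2 of 10 were called higher, Ndrg1 at 229 ± 87.2 against 15.97 ± 5.66 CPM (adjusted p = 0.00197) and Egln3, a prolyl hydroxylase of the oxygen-sensing pathway, at 30.6 ± 13.8 against 0.0162 ± 0.0281 CPM (adjusted p = 0.0143). Cpe was called higher as well, at 365 ± 229 against 1.37 ± 1.26 CPM (adjusted p = 2.30e-04). Further genes called there are named after their values were seen. Gnas, which encodes the Gs alpha subunit, was the 1 gene of the signalling list that was higher, at 4862 ± 1932 against 662 ± 207 CPM (adjusted p = 0.00332). Ackr3 was lower in lymphatic EC, at 60.0 ± 79.5 against 302 ± 318 CPM (adjusted p = 0.00438), and so was Slc9a3r1, a scaffold protein, at 0 against 18.6 ± 11.6 CPM (adjusted p = 0.0429).

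In Car4+ capillaries 2 of 5 tested genes of peptide maturation, clearance and binding were called higher, where 8.53% of all genes were called, among them Pam, the enzyme that amidates adrenomedullin, at 273 ± 118 against 189 ± 65.0 CPM (SD, n = 8, higher in 7 of 8 mice, adjusted p = 0.0226). In the signalling list 1 of 19 was called higher, Rap1b, a small GTPase (691 ± 410 against 434 ± 181 CPM, adjusted p = 0.00652), and 1 lower, Pde3a (37.0 ± 20.5 against 231 ± 66.8 CPM, adjusted p = 0.00132), with a list median of -0.45 that equals that of all genes to 2 decimals. Vegfa, an endothelial growth factor and 1 of 8 tested genes induced by hypoxia, was lower at 1.56 ± 2.11 against 31.4 ± 18.8 CPM (adjusted p = 0.00332). Embryonic EC at E18.5 against Car4- capillaries at P1 had 2 of 10 hypoxia genes called higher, where 0.494% of all genes were called, Egln3 at 102 ± 41.8 against 0.0243 ± 0.0344 CPM (SD, n = 2, adjusted p = 0.00111) and Ankrd37 at 525 ± 181 against 43.3 ± 39.1 CPM (adjusted p = 0.0431), and Pde3a called lower at 3.24 ± 0.166 against 151 ± 42.5 CPM (adjusted p = 1.20e-05). Proliferative EC and arterial EC I had 0 listed genes called by edgeR.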

How the data were processed

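The authors deposited unnormalized counts of whole reads for each cell and gene per the file headers, under 18072 gene symbols. Per the submitters' processing notes, STAR 2.5.2b and HTSeq 0.10 were used and the build was named as GRCh38, a human build; the mouse build behind the counts is not given in the sources used here. Positions are from GENCODE M21 on GRCm38, promoters from RefSeq on GRCm38.p6. Reads were summed per mouse and class (at least 8 cells for tests, 4 for levels) and tested with edgeR 4.0.16 (TMM, filterByExpr, quasi-likelihood F test, all groups of a class in 1 model; Benjamini-Hochberg over all genes, 0.05). The code was tested on simulated data. Alternatives were DESeq2 1.42.0, limma 3.58.1 on log2(mean CPM + 1), RLE scaling, no filter, CD31-sorted cells alone, 50000 reads per cell, each mouse left out, sex as a block, and other choices of cells or mice. Named pathway genes were those called, at most 4 per comparison by size of change, whose higher group averaged 20 CPM or more (1 such gene is not reported here); Adm2, Calcb and Iapp had no row. The members and lists were chosen with earlier results of these data known.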

Additional observations from a re-analysis of the deposited data

Results flagged for a closer look

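Adm differed in opposite directions in a pair of labels between E18.5 and P1, at levels close to 0. In venous EC it was at 0 in both E18.5 mice and at a mean of 0.740 CPM at P1, and in proliferative EC both E18.5 mice lay above both P1 mice, with means of 7.83 and 0.169 CPM. The difference between the labels was not tested.

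Ramp1 appeared in arterial EC II, a label that entered no test, at 58.2 CPM in the hyperoxia male, where all other mice of the label had 0 reads. It came from 1 of the 4 cells of that mouse and label.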

How the results depend on the processing

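Over the 102 fitted changes of a member and their 1756 alternatives, 1654 kept their direction and side of the threshold, 42 passed it where edgeR had not, 17 no longer passed, and 43 changed sign. Each of the 10 mice was left out of every fit, also where the fit did not hold that mouse. Such an omission repeats the main fit and is among the 1654, so that count overstates how stable the results are. Of those 42, DESeq2 gave 21. Calls over age went from 0 to 6 by DESeq2, 3 with no filter on low counts and 2 at 50000 reads per cell, and to between 0 and 2 when each mouse was left out. Calls under hyperoxia went from 0 to 4 by DESeq2, and the differences of hyperoxia effects from 0 to 1. Subtype calls went from 4 to 13 by DESeq2, which called 16.8% of the tests of all genes there. They went to between 1 and 5 when each mouse was left out (1 without the P1 female and 2 without the P1 male). The call in embryonic EC went from 1 to 2 by DESeq2, which called 3.82% of all genes there, and to 0 by limma. It went to between 0 and 1 when each mouse was left out. The cause of these differences was not tested.

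The sign changes touched 21 changes, none of them called, and 29 of the 43 came from leaving out a mouse. The alternatives that changed sign had adjusted p of at least 0.879. With each mouse left out, log2 changes under hyperoxia ran from -0.22 to 0.021 for Ramp2 in Car4- capillaries, from -0.53 to 0.15 for Calcrl, -0.080 to 0.017 for Ramp2 and -10.15 to 8.95 for Adm in proliferative EC, and from -0.18 to 0.095 for Calcrl and -0.43 to 0.22 for Ramp2 in venous EC. From E18.5 to P1 in venous EC they ran from -0.12 to 0.34 for Calcrl and -0.24 to 0.78 for Ramp2. From P1 to P7 they ran from -2.17 to 0.57 for Ramp3 in Car4+ capillaries and -5.42 to 10.27 for Adm in proliferative EC. Ramp2 in arterial EC I ran from -0.27 to 0.0081, and Ramp1 in Car4+ capillaries was 0.067 by limma.

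For differences from Car4- capillaries of the hyperoxia effect, Ramp2 ran from -0.089 to 0.18 and Ramp3 from -2.84 to 1.38 in proliferative EC, and Ramp2 from -0.21 to 0.13 and Ramp3 from -0.78 to 1.36 in venous EC. Ramp2 in proliferative EC was -0.080 by limma, -0.18 with CD31-sorted cells and -0.20 at 50000 reads per cell, and Ramp3 in venous EC -0.29 by limma and -0.13 at 50000 reads. For the difference of Car4+ from Car4- capillaries over age, Ramp1 ran from -13.75 to 11.12 for P1 to P7. For P7 to P21, Adm ran from -5.38 to 5.43, Ramp1 from -1.59 to 2.92 and Ramp2 from -0.20 to 0.33. There Adm was -3.51 by DESeq2, -2.89 by limma, -7.01 with CD31-sorted cells and -1.59 at 50000 reads, Ramp1 was -0.011 by limma, Ramp2 -0.024 by DESeq2 and by RLE scaling, and Ramp3 1.29 with CD31-sorted cells.

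With sex as a replicate block, calls stayed at 0 for age, 0 for hyperoxia and 1 for embryonic EC. Deviations of same-sex mice correlated between -0.02 and 0.08 over 34 pairs, which repeat the same mice across classes and fits. Over the genes tested, no pairing of the mice by letter was thus seen. For the members alone this was not tested. Taking the mean of CPM over cells moved none of 24 medians of Calcrl, Ramp2 and Ramp3 by more than 1 SD between mice. With 2 mice per group and sums of as few as 8 cells, values of Adm rest on few cells and those of Ramp1 on single cells. Small differences were not detectable, and larger ones could be missed. In the simulated data for Car4- capillaries from P7 to P21, 55 of 90 genes with a log2 change of 2 were recovered. Those genes were simulated at higher levels than Adm and Ramp1 had there.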
